A study of Homo sapiens with 12 samples.

Results

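The region described here is the outer part of the short arm of chromosome 10, the first 28450 kb from the chromosome's start (hg38), and the H3K9me3 peaks of 293T cells that lie in it. A peak belonged to the region when the midpoint between its start and end fell within those 28450 kb. This took in 453 of the 46898 peaks called in wild-type (WT) cells and 210 of the 65170 called in knockout (KO) cells, 663 of 112068 peaks in all. The region was chosen by the measured peaks themselves, as a long run of windows with fewer peak bases in KO than in WT, so every KO to WT ratio inside it is given as a description and none was tested.

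The 293T line comes from human embryonic kidney cells and expresses the large T antigen of SV40. One group was unmodified 293T cells and the other 293T cells labelled as a knockout of SMARCA3, now named HLTF. HLTF is a DNA translocase of the SWI/SNF family that also acts as a ubiquitin ligase on PCNA and remodels stalled replication forks. Peak positions do not measure its protein or RNA, so the loss of HLTF could not be checked here. Each genotype had 3 ChIP libraries with an anti-H3K9me3 antibody and 3 input libraries, described as biological triplicates, but the peaks come as 1 list per genotype. How the knockout was made, and from how many clones, is not stated in the labels. With 1 list on each side there is no spread between replicates and no p-value, and the intervals below cover the counting of peaks alone. The read depth behind either list is unknown here.

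H3K9me3 is written by methyltransferases such as SUV39H1, SUV39H2 and SETDB1 and read by HP1 proteins, which compact the marked chromatin. In differentiated and transformed cells it covers satellite repeats, silenced transposable elements and clusters of zinc finger genes, and in gene-rich arms it often sits in short patches inside introns and between genes. Promoters of active genes, many of them rich in the dinucleotide CpG, usually lack it.

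Peaks seldom touched RefSeq promoter windows, in the region or elsewhere. RefSeq (GRCh38.p14) lists 371 promoter windows here, each with 250 bases before and 50 bases from a gene's start, and no WT and no KO peak touched any of them, which by the Wilson 95% interval allows a share of up to 1.02% in each list. Among 34745 windows elsewhere, 86 met a WT peak (0.248%) and 222 a KO peak (0.639%), shares that the region's interval covers. By the authors' columns, peaks of the noncoding gene AL713922.2, which has no RefSeq match, lay 114 bp from its start in WT and 13 bp in KO. The sequences below are the 250 bases before the first start listed for a gene in RefSeq's promoter table. For NSUN6 that start lies inside the annotated gene span. The genes are the 3 of the region with the largest loss of peak bases among those with an entry in the promoter table. The sequences are shown because the genes' bodies carried many peaks while these stretches carried none. They are written 5′ to 3′ on the gene's strand, with every CpG in capitals.

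NSUN6 (minus strand, chr10:18659239-18659488): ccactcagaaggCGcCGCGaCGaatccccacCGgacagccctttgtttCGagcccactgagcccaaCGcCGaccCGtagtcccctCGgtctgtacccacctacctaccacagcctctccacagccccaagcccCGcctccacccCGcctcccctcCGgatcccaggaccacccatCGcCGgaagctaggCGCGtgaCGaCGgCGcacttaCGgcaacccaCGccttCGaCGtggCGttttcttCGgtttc

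ZMYND11 (plus strand, chr10:129838-130087): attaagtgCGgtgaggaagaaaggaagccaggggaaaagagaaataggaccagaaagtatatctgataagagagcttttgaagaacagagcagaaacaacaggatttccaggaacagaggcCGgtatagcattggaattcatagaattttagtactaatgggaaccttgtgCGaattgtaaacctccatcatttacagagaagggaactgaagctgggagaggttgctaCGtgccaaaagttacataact

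SFMBT2 (minus strand, chr10:7411491-7411740): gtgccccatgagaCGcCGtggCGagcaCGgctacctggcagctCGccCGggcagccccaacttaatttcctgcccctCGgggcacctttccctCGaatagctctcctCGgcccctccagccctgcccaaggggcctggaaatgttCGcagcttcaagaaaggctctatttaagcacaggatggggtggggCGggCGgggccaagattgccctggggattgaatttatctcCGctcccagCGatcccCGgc

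The 3 stretches differ in composition. The NSUN6 stretch holds 26 CpGs at 66.4% G and C, the SFMBT2 stretch 15 at 63.6%, and the ZMYND11 stretch, the first of 8 windows of that gene, 4 at 41.6%. From the NSUN6 start the nearest peak was at 37335 bp in WT, upstream of the gene, and at 87142 bp in KO, inside it. From the ZMYND11 start the distances were 6515 bp in WT, to a peak of fold 4.16, and 15761 bp in KO, to a peak of fold 3.97. From the SFMBT2 start the nearest peaks, which lay upstream of the gene in both lists, were at 36481 bp in WT and 36435 bp in KO. Over all windows of the region the median was 12.0 CpGs at 55.7% G and C, beside 58.7% over the windows of all chromosomes. The 94 windows of protein-coding genes with a WT peak assigned had a median of 17.0 CpGs, and the 106 windows of those without one had 29.5. Several windows can belong to 1 gene.

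One miRNA gene of the region, MIR4481, had peaks assigned to it, 1 in each list. Its mature product, hsa-miR-4481, lies on the minus strand at chr10:12653181-12653197 and is shown because it is the single miRNA named in these peaks, with its seed, bases 2 to 8, in capitals.

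hsa-miR-4481: gGAGUGGGcuggugguu

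The WT peak, at 12654053 to 12654526 upstream of the gene, had a fold enrichment of 3.45 and a width of 474 bp. The KO peak, at 12653881 to 12654171, had a fold of 3.36 and a width of 291 bp. The fold enrichment is the authors' value for each peak, read here as ChIP signal over background at the peak. It is used to describe and rank peaks within a list and, where both lists had a peak, to set KO beside WT. The depth and background behind each list are unknown, so differences in fold between the lists are descriptions only.

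Across the region WT cells had more H3K9me3 peaks than KO cells, in a genome where the KO list was the longer one. The 453 WT and 210 KO peaks gave a ratio of KO to WT of 0.464 (95% interval 0.394 to 0.546). The ratio was 1.37 on the rest of chromosome 10 and 1.40 over the rest of the genome. Peaks covered 291491 bases in WT against 128151 in KO (ratio 0.440), with a mean width of 643.5 bp in WT and 610.2 bp in KO. Elsewhere on chromosome 10 covered bases had a ratio of 1.61, and mean width was 762.2 bp in WT and 894.8 bp in KO. Within the region WT peaks stood at 15.9 per Mb and KO peaks at 7.38 per Mb. By 1 Mb windows the region's median was 15.0 peaks in WT, above the median of 12.0 over all windows with a peak. In KO the region's median was 6.50, below the median of 16.0 over all such windows. A choice by fewer KO than WT bases favours both directions, so nothing is read from these medians.

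By the fold of the peaks the ratio was smaller at fold 4 and above, with 171 WT and 54 KO peaks (0.316), beside 1.09 at that fold elsewhere on the chromosome. Among peaks at or below the pooled median q-value it was larger, at 0.590. At fold 5 and above there were 32 and 4 (0.125, 0.0461 to 0.339), and at fold 6 and above 7 and 1 (0.143, 0.0229 to 0.890). Elsewhere on chromosome 10 the counts at fold 5 and above were 171 and 235. The 4 width classes of the region were alike. Peaks under 400 bp had a ratio of 0.485 (165 and 80 peaks), those of 400 to under 800 bp 0.479 (188 and 90), those of 800 to under 1500 bp 0.389 (72 and 28) and those of 1500 bp and above 0.429 (28 and 12), and their intervals overlap. The same classes on the rest of chromosome 10 went from 1.11 for the narrowest to 1.92 for the widest.

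**Figure D1:**
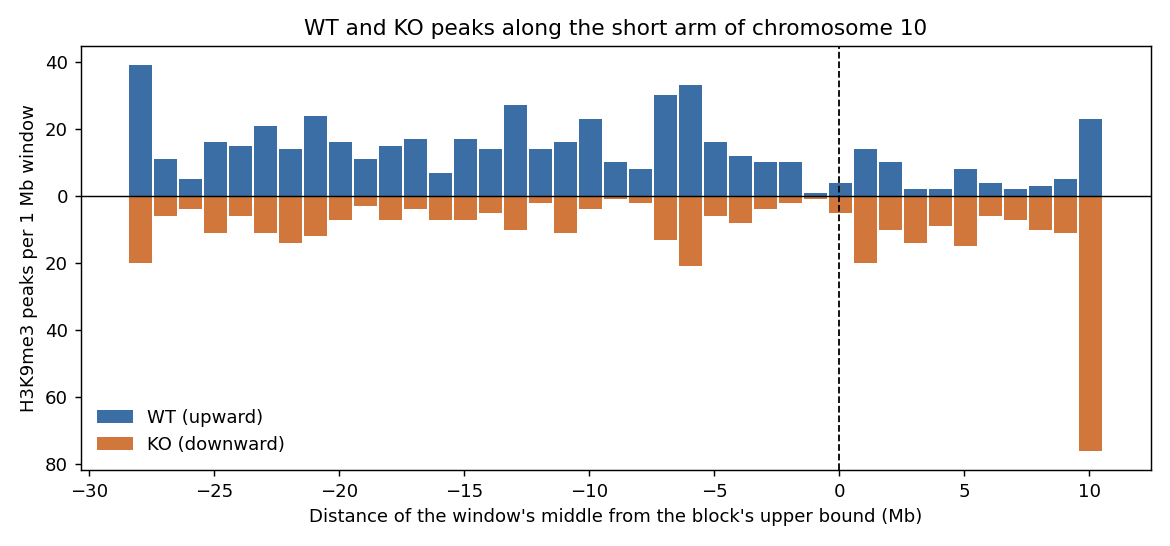
Peaks per 1 Mb window on the short arm of chromosome 10, by distance of the window's middle from the upper bound of the region (dashed line, Mb), with WT counts drawn upward and KO counts downward. Left of the line WT counts equal or exceed KO counts in every window, and from the next full window on the right KO counts equal or exceed WT counts, up to 23 and 76 peaks in the last window drawn.

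The difference ran through the whole region and stopped near its bound. Of the 28 full windows of 1 Mb, 27 had fewer peak bases in KO, where 10.8% of windows do genome-wide, and since the region was chosen on this measure nothing is read from that gap. Of the 103 windows with a peak from 29 Mb to the end of chromosome 10, 9 had fewer KO bases (8.74%). The single window of the region with more KO bases was the one from 27 to 28 Mb, which held 1 peak in each list, of 268 bases in WT and 1548 in KO.

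By stretches of 5 Mb the ratio ranged from 0.311 to 0.547. From 0 to 5 Mb the lists held 86 WT and 47 KO peaks (ratio 0.547, 0.384 to 0.778), and from 5 to 10 Mb they again held 86 and 47. The ratio was 0.429 from 10 to 15 Mb (70 and 30 peaks) and 0.311 from 15 to 20 Mb (90 and 28 peaks, 0.204 to 0.474), the lowest of the 6 stretches. It was 0.505 from 20 to 25 Mb (99 and 50 peaks) and 0.364 from 25 Mb to the bound (22 and 8 peaks). All 6 intervals overlap. Past the bound, to 33 Mb, there were 31 WT and 57 KO peaks, a ratio of 1.84 (1.19 to 2.84), and from 33 to 38 Mb 22 and 49, a ratio of 2.23 (1.35 to 3.66).

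By covered bases the 5 windows of largest loss were spread over the arm. The first window, from 0 to 1 Mb, with ZMYND11 and the chromosome end, had 27675 bases in WT and 12167 in KO. The window from 18 to 19 Mb, with NSUN6, had 14567 and 1667. The window from 15 to 16 Mb, with ITGA8 and MINDY3, had 18857 and 6497, and that from 21 to 22 Mb, with DNAJC1, had 18536 and 6293. The window from 22 to 23 Mb, where most peaks were intergenic and the others lay at ARMC3 and AL390318.1, had 23690 and 13391. The smallest share of WT bases was in the window from 19 to 20 Mb, with 10 WT peaks over 3928 bases and 1 KO peak of 349 bases. The windows closest to parity among those with fewer KO bases were 17 to 18 Mb, with 9306 and 7971 bases, and 6 to 7 Mb, with 14 peaks in each list over 11270 and 8724 bases. Long stretches held no KO peak at all. The longest ran 1154686 bp, from 25358336 to 26513023, across MYO3A, and others of 1004305 and 999917 bp began at 1704375 and 9161152. The longest stretch with no WT peak was 715910 bp, from 27492184 to 28208095.

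The values on either side of the bound were close in kind. The last WT peaks inside were at 26949963 to 26950537 with a fold of 4.01, at 27491917 to 27492184 with 3.53, and at 28208095 to 28208375 in MPP7 with 2.80. The first WT peaks outside had folds of 4.09, 4.40 and 3.98 and lay in the noncoding genes AL358234.1 and LINC01517. The last KO peaks inside had folds of 4.21 in ABI1, 5.22 between genes and 3.90 in MPP7, and the first outside had 3.97, 3.97 and 5.11. The bound lies in a sparsely marked stretch: from 27 to 29 Mb there were 5 WT and 6 KO peaks, so these data place the change only within that range.

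Most WT peaks of the region met no KO peak, and most of its KO peaks met a WT peak. Peaks were taken to meet when they shared at least 1 bp. Of the 453 WT peaks, 157 met a KO peak (34.7%, 30.4 to 39.2) and 296 (65.3%) met none, where 20.1% of WT peaks on chromosomes 1 to 22, X and Y met none. Again this measure belongs to the contrast that chose the region. Of the 210 KO peaks, 153 met a WT peak (72.9%, 66.5 to 78.4), beside 53.6% on the rest of chromosome 10. Under the stricter demand that at least 50% of both peaks be shared, 35.7% of KO peaks met one, so the larger share holds for touching peaks only. The 57 KO peaks with no WT counterpart were narrow, with a median width of 372 bp and a median fold of 3.43, and the highest had a fold of 4.44. The 296 WT peaks without a KO counterpart had a median width of 409 bp and a median fold of 3.71, and reached a fold of 5.42. The highest such WT peak had 4.79 on the rest of chromosome 10, 5.58 on the stretch of chromosome 3 compared below and 7.61 over the rest of the genome.

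From a WT fold of 3.5 upward, the share met in KO was larger in each stronger class. Of WT peaks with a fold under 3.5, 31 of 115 met a KO peak (interval 19.7 to 35.7%), and of those from 3.5 to 4, 30 of 167 (18.0%, 12.9 to 24.5). From 4 to 4.5 it was 35 of 93 (37.6%), from 4.5 to 5 33 of 46 (71.7%) and from 5 upward 28 of 32 (87.5%). On the rest of chromosome 10 the shares for the same 5 classes were 79.6, 79.8, 90.1, 97.0 and 100.0%. The region had the smaller share in all 5 classes, a direction that its choice by fewer KO bases favours.

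**Figure D2:**
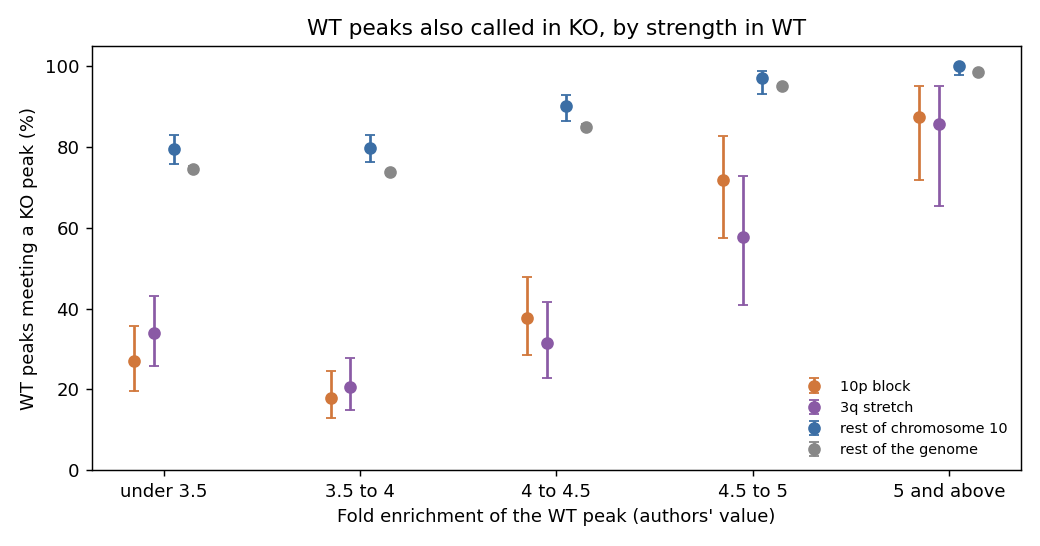
Share of WT peaks that meet a KO peak (%), by the fold enrichment of the WT peak, with Wilson 95% intervals, for the region on 10p, a stretch of chromosome 3, the rest of chromosome 10 and the rest of the genome. In the region 31 of 115 peaks are met in the lowest class, then 18.0% at a fold of 3.5 to 4, and 87.5% at fold 5 and above, while the rest of chromosome 10 goes from 79.6 to 100.0%.

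Where both lists had a peak, the KO peak was the weaker and the narrower one in most cases. Among the 157 WT peaks met, 114 had a partner of lower KO fold (72.6%, 65.2 to 79.0), where 42.1% do genome-wide. The median ratio of KO to WT fold was 0.861, with quartiles of 0.760 and 1.04, beside 1.05 on the rest of chromosome 10. The median width of the WT peaks met was 753 bp and that of their KO partners 516 bp, and 103 of the 157 partners were narrower (65.6%, beside 20.6% on the rest of chromosome 10). All 28 met WT peaks of fold 5 and above had a KO partner of lower fold, with a median KO fold of 4.13. Of those on the rest of chromosome 10, 88 of 171 did (51.5%). In the lowest WT class, under fold 3.5, 4 of 31 partners were lower. Picking peaks by a high value in one list favours a lower value in the other, so the shares in matching classes elsewhere are the ones to read beside these.

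**Figure D3:**
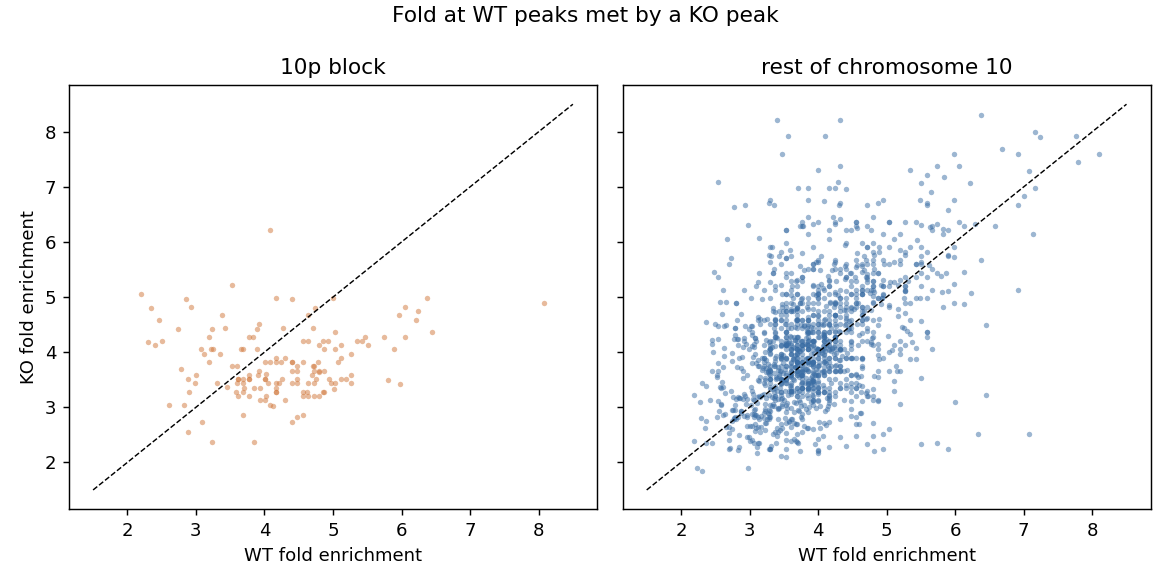
Fold enrichment in KO against WT at WT peaks met by a KO peak, 1 point per WT peak, with equal values on the dashed line, for 157 peaks of the region (left) and 1423 of 1452 on the rest of chromosome 10 (right; 29 with a fold above 8.5 are not drawn). In the region 114 of 157 points lie below the line, and above a WT fold of 5 all 28 do.

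The strongest peaks of the region illustrate this. In WT the highest fold was 8.08 (q-value 3.4e-29), at a peak of 2782 bp at 15799654 to 15802435 in MINDY3, which encodes a deubiquitinase for lysine 48-linked ubiquitin chains. Its KO partner was 1529 bp wide with a fold of 4.90. Next came a peak of 895 bp in NEBL, the gene of the actin-binding protein nebulette, with 6.45 in WT and 4.36 in KO. An intergenic peak at 4040657 to 4042284 had 6.37 and 4.98. The peak in the lincRNA gene AL139125.1 at 7447971 to 7450689 had 6.24 in WT and met KO peaks of 4.75 and 5.29. An intergenic peak at 8477386 to 8478087 had 6.21 and 4.59. All 5 were called in both genotypes at lower KO fold.

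The strongest KO peaks were partly other ones. The first was in the noncoding gene AL359878.1 at 978963 to 979959, with a fold of 6.22 in KO, while the WT peak it met had 4.08. The KO peak of AL139125.1 with 5.29 came second. An intergenic KO peak at 27490830 to 27492377, in the only window with more KO bases, had 5.22 where WT had 3.53. The fourth, intergenic at 713539 to 714463, had 5.05 in KO and 2.20 in WT, and the fifth was the KO partner at 4040761 to 4042624, with 4.98, level after rounding with a peak at 17261557 to 17264178. At 3 of these 5 places the KO fold was above the WT fold.

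Seen in WT alone, gene bodies held a larger share of the region's peaks than of peaks over the rest of the genome. Gene bodies held 227 of the 453 WT peaks (50.1%, 45.5 to 54.7), beside 43.5% (43.1 to 44.0) over the rest of the genome. Peaks assigned to protein-coding genes made up 48.1%, beside 36.2%. The larger share in gene bodies was not particular to the region. On the stretch of chromosome 3 compared below it was 59.1% (54.2 to 63.8), with 44.4% at protein-coding genes. For the rest of chromosome 10 the gene-body interval, 42.7 to 47.4%, overlapped that of the region, and protein-coding genes had 39.2%. Of 133 RefSeq protein-coding genes starting in the region, 49 were marked in WT (36.8%) and 36 in KO (27.1%). Elsewhere the shares were 20.6% and 23.4%. The choice of the region by fewer KO than WT bases favours a high share in WT. WT peaks in gene bodies lay a median of 35381 bp from the transcript start. The widest peak spanned 3702 bp in WT and 3038 bp in KO. Of the region's WT peaks 13.7% exceeded 1 kb, beside 18.0% over the rest of the genome and 12.5% on the stretch of chromosome 3. The median WT width was 494 bp, close to the 483 bp over the rest of the genome.

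The annotation classes had similar ratios. Gene bodies had 227 WT and 94 KO peaks (ratio 0.414), intergenic parts 192 and 100 (0.521), and the promoter classes, which reach out to 3 kb, 29 and 11 (0.379). The share of peaks in the promoter classes was 6.40% in WT and 5.24% in KO, a difference of -1.16 percentage points (-4.66 to 3.17). The subtelomeric class had 5 peaks in each list. By type, peaks at protein-coding genes numbered 218 and 83 (0.381), and those at lincRNA genes 9 and 7. Most promoter-class peaks lay 1 to 3 kb from the start, 22 of 29 in WT and 6 of 11 in KO. The peaks nearest a start were those of AL713922.2, a noncoding gene inside the ZMYND11 locus, with folds of 4.27 in WT and 4.44 in KO.

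Of the 76 genes with a peak assigned in the region, 68 had fewer peak bases in KO and 8 had more. Over all 9261 genes with a peak in either list 21.0% had fewer. The median of KO minus WT was -793.0 bases in the region and 517.0 bases over all genes. For 27 of the 76 genes WT alone had peaks, for 4 KO alone, and for 45 both. Over all 9261 genes the same counts were 563, 2197 and 6501. This measure too belongs to the contrast that chose the region. The 17 genes with at least 5 WT peaks all had fewer KO bases, 151 peaks in WT and 55 in KO together. Outside the region 244 of 1444 such genes did (16.9%). A filter on WT peaks inside a region chosen for fewer KO bases favours that direction, so nothing is read from the gap.

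**Figure D4:**
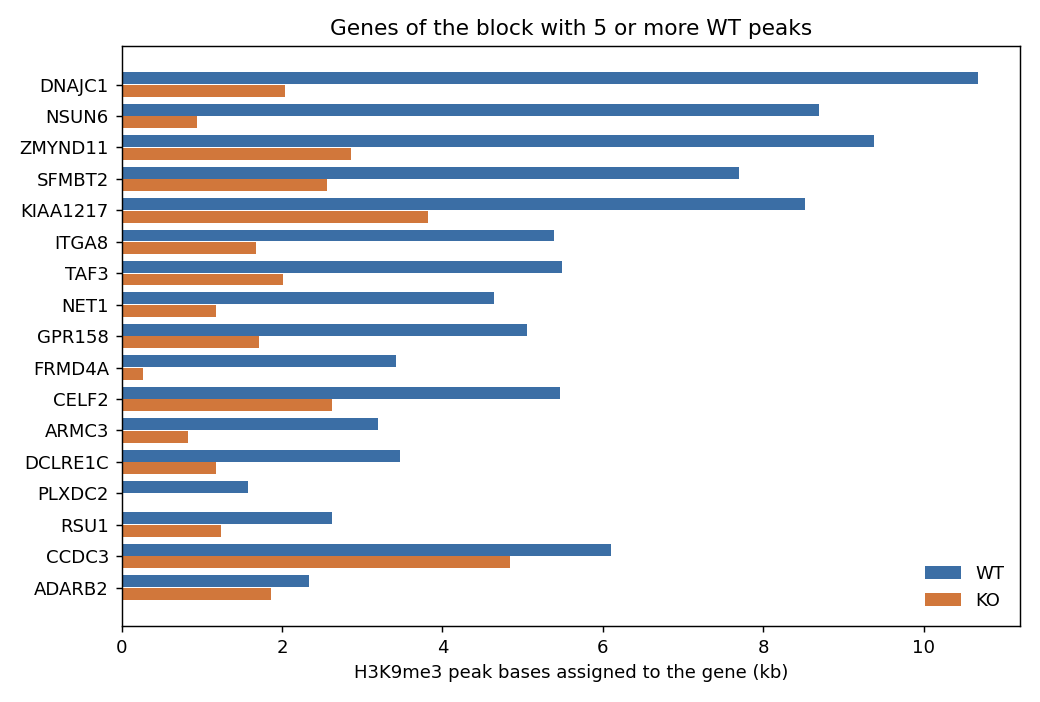
Peak bases (kb) assigned to each of the 17 genes of the region with at least 5 WT peaks, in WT (upper bar) and KO (lower bar), ordered by the loss. DNAJC1 goes from 10673 to 2037 bases and NSUN6 from 8691 to 942, PLXDC2 has none in KO, and ADARB2 at the foot goes from 2335 to 1868.

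DNAJC1 (ENSG00000136770), which encodes a J-domain co-chaperone of the endoplasmic reticulum, had the most peaks and the largest loss. The gene lies at 21756548 to 22003730, and its 21 WT peaks were strung from 21813912 to 21987660, 282 to 1051 bp wide, with folds from 2.52 to 5.03. Its 5 KO peaks, 322 to 578 bp wide with folds from 3.36 to 4.05, all fell on WT peaks. At 21849361 to 21850411 the WT fold of 5.03 stood beside 4.05 in KO. At 21986007 to 21986821 the values were 4.80 and 3.65, at 21829952 to 21830678 4.64 and 3.43, at 21827413 to 21827764 3.93 and 3.66, and at 21825369 to 21826003 3.85 and 3.36. Each of the 5 KO folds was the lower one. The pair of WT peaks at 21935388 to 21936332, with folds of 3.85 and 4.48, had no KO counterpart, and neither had those between 21872303 and 21893953.

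ZMYND11 (ENSG00000015171), at 130088 to 254637 near the chromosome end, encodes a reader of H3.3 trimethylated on lysine 36. Its 15 WT peaks lay between 159352 and 184673, 13 of them before 172259, with folds from 3.29 to 5.27. The 6 KO peaks had folds from 3.20 to 4.05. The widest WT peak, 2210 bp at 167893 to 170102 with a fold of 5.27, met 2 KO peaks of 327 and 467 bp with folds of 3.51 and 3.97. Of the 4 WT peaks met, 3 had a lower KO fold. The exception was the peak at 166449 to 167204, with 3.69 in WT and 4.05 in KO. One KO peak at 145849 to 146529 was assigned to ZMYND11 by the authors while the WT peak it met was assigned to AL713922.2, so the count for ZMYND11 compares slightly different stretches.

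NSUN6 (ENSG00000241058), which encodes an RNA methyltransferase acting on cytosine 5, lies at 18545561 to 18659327. It had 12 WT peaks between 18555121 and 18578902 with folds from 3.14 to 4.64. KO had 2 peaks there, of 426 and 516 bp with folds of 3.20 and 3.43, inside the 2 widest WT peaks, of 2078 and 2048 bp with 4.56 and 4.48. Peak bases went from 8691 to 942.

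SFMBT2 (ENSG00000198879), which encodes a polycomb-related protein with MBT repeats, lies at 7158624 to 7411490 and had 10 WT and 4 KO peaks. A group of 5 WT peaks from 7304689 to 7309375, with folds from 2.57 to 4.00, had no KO peak. The 3 strongest WT peaks, of 4.94, 4.93 and 4.40, all met KO peaks, of 3.51, 4.21 and 3.66. The 4 KO peaks of SFMBT2 thus lay on its 3 strongest WT peaks, and its other 7 WT peaks, of fold 4.00 and below, had none.

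The genes were grouped by role. For reading each list, 36.8% of the region's protein-coding genes were marked in WT and 89.5% of its genes with a peak had fewer KO bases, so counts of genes with fewer KO bases near that share say nothing particular of a list. The list of chromatin and transcription regulators held 15 genes of the region. WT peaks were found at 7 and KO peaks at 5 of them, all 7 had fewer KO bases, and the median difference over the 7 was -2847.0 bases. That median is the value of CELF2, which like TRDMT1 acts on RNA although it stands in this list. Beside ZMYND11 and SFMBT2, TAF3, a subunit of the general factor TFIID, had 6 WT and 2 KO peaks over 5485 and 2014 bases. CELF2, an RNA-binding splicing regulator, had 12 and 4 peaks. Its 2 WT peaks from 11184891 to 11185873, of folds 2.35 and 4.74, met a single KO peak of 4.80. MLLT10, whose product works with the H3K79 methyltransferase DOT1L, had 2 peaks in each list over 3346 and 1300 bases, and the highest fold was 6.05 in WT and 4.28 in KO. TASOR2, listed as FAM208B, and TRDMT1 had 1 WT peak and none in KO. The H3K9 methyltransferase gene SUV39H2, BMI1, GATA3, KLF6, PTF1A, MKX, SKIDA1 and BEND7 had no peak in either list.

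Genes with roles in neurons and brain numbered 13 in the list. WT peaks were found at 9 and KO peaks at 6, 7 had fewer and 2 had more KO bases, and the median difference was -1574.0. KIAA1217 stands in this list although it is the gene of a skeletal and adhesion-related protein known as SKT. KIAA1217 had 10 WT and 7 KO peaks over 8525 and 3823 bases. At 24326884 to 24328453 its fold was 5.27 in WT and 3.59 in KO, and at 24140336 to 24141709 the values were 4.63 and 4.67. GPR158, an orphan receptor gene, had 8 and 4 peaks. FRMD4A, a scaffold gene of cell polarity, had 7 and 1, and PLXDC2 and the zinc transporter gene SLC39A12 had 5 and 4 in WT and none in KO. ADARB2, which encodes a relative of the RNA-editing ADAR enzymes, had 5 peaks in each list, but only 1 place was common to both, at 1430873 to 1431598 with 4.72 in WT and 3.66 in KO. Its other 4 KO peaks, with folds from 3.15 to 3.43, lay where WT had none. ST8SIA6, a sialyltransferase gene, had 3 WT and 4 KO peaks, and CAMK1D, a kinase gene, 1 in each. They were the 2 members with more KO bases, by 316 and 83. GAD2, C1QL3, CDNF and DIP2C had no peak.

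The list of kidney, muscle, cilium and cytoskeleton genes held 12 genes, 9 of them with peaks in WT and 7 in KO. Here 8 had fewer KO bases and 1 more, with a median of -909.0. ITGA8, the integrin alpha chain needed for kidney development, had 9 WT and 2 KO peaks over 5392 and 1672 bases. NEBL had 4 and 3, ARMC3 5 and 2, and ABI1, a regulator of actin assembly, 4 and 1. CUBN, the kidney and gut receptor cubilin, had 4 WT peaks and 1 KO peak, at a place WT lacked. MPP7 near the bound had 281 bases in WT and 497 in KO. VIM, SPAG6 and ODAD2 had no peak.

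Immune genes were marked at 4 of 6 in WT and 2 in KO, all 4 with fewer KO bases and a median of -696.0. DCLRE1C, the gene of the nuclease Artemis, had 6 and 2 peaks and APBB1IP 2 and 1. IL2RA and PRKCQ had 1 WT peak each and none in KO. In the list of protein quality, trafficking and repair, 4 of 12 genes were marked, each in both genotypes, all 4 with fewer KO bases and a median of -858.0. Beside DNAJC1, RSU1 had 5 and 1 peaks and STAM 1 and 1. UPF2, a factor of nonsense-mediated decay, had 3 WT and 4 KO peaks over 1855 and 1639 bases, and all 3 WT peaks were met. Of the 19 metabolic and mitochondrial genes 1 was marked, AKR1E2, with 4 WT peaks and 1 KO peak, beside the 36.8% of all protein-coding genes of the region marked in WT. The difference was not tested. All peaks of AKR1E2 lay before the start of its RefSeq span at 4824973, so their assignment to it rests on the authors' columns. The steroid-metabolizing genes AKR1C1, AKR1C2, AKR1C3 and AKR1C4 had none, while of the names beside them AKR1C5P had 1 peak in WT alone and AKR1C8P had 3 in WT against 1 in KO.

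CCDC3, a gene outside these lists with 7 WT and 6 KO peaks, showed a smaller loss, from 6096 to 4844 bases, with 5 of 7 WT peaks met. Its strongest peak, of 2690 bp at 13022836 to 13025525, had a fold of 6.06 in WT and 4.82 in KO. NET1, a guanine nucleotide exchange factor gene, had 8 and 2 peaks. The 5 genes with the largest gain of KO bases were 4 of no protein-coding type and ST8SIA6. AL137145.2 had 2 KO peaks of folds 4.13 and 3.51 and none in WT, RPL26P28 2 of 3.67 and 4.34 and none in WT, PRKCQ-AS1 1 in each over 397 and 771 bases, and LINC00707 1 in KO alone.

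Fold values spaced by an even step made up larger shares of the region's peaks than of those on the rest of chromosome 10. Many fold values differ from each other by whole numbers of 1 step, 0.0788 for WT and 0.0772 for KO (to within 1.5e-05), the pattern that whole reads over 1 constant background would give. Values off this grid were read as peaks set against a higher local background, a reading inferred from the values alone. In the region 63.1% of WT peaks (58.6 to 67.4) and 68.1% of KO peaks (61.5 to 74.0) were on the grid, with overlapping intervals. On the rest of chromosome 10 the shares were 56.2% in WT and 47.8% in KO. At the 157 places called in both lists, the WT value was off and the KO value on the grid at 51 (32.5%), and the reverse held at 8 (5.10%). On the rest of chromosome 10 these were 6.75% and 15.1%. In SFMBT2 1 of 10 WT peaks and 4 of 4 KO peaks were on the grid, and in CCDC3 1 of 7 and 3 of 6, whereas in DNAJC1 18 of 21 and 4 of 5 were. The part of the background in the lower KO counts was not tested.

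The longest run of windows with fewer KO bases in the genome, 29 windows on the long arm of chromosome 3 that begin with the one holding HLTF, was set beside the region. Other long runs, of 28 and 24 windows, lay on chromosome X and were not compared, while the run in the region had 27 windows. The stretch on chromosome 3 held 401 WT and 163 KO peaks, a ratio of 0.406 (0.339 to 0.488). Of its WT peaks 33.2% met a KO peak (28.7 to 37.9). The median ratio of KO to WT fold at the places called in both was 0.910, beside 0.861 in the region on chromosome 10. Among KO peaks, 84.0% there (77.7 to 88.9) and 72.9% in the region (66.5 to 78.4) met a WT peak. The share on the grid was 70.3% for WT (65.7 to 74.6) and 60.1% for KO (52.5 to 67.3) on chromosome 3, beside 63.1 and 68.1% in the region. At places called in both lists the direction was alike. Only the KO value was on the grid at 20.3% on chromosome 3 and 32.5% in the region. Only the WT value was on it at 6.77% and 5.10%. The stretches on chromosomes 3 and 10 were found by the same measure, and the difference between them was not tested.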

How the data were processed

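H3K9me3 ChIP-seq was made from 293T cells, with 3 ChIP and 3 input libraries per genotype (12 in all). The submitters' processing notes name HISAT2 and hg38. The authors deposited 1 annotated peak list per genotype, with a fold enrichment (ratio) and a q-value per peak, per the file headers. Gene and annotation classes are the authors' columns. The peak caller, its settings and the handling of inputs are not given in the sources used.

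Peaks were assigned to the region by midpoint, compared by overlap of at least 1 bp, and summed in windows of 1 Mb with Python 3.11.15, pandas 2.3.3 and scipy 1.17.1. The overlap code was tested on simulated data. Intervals are Wilson 95% intervals, also turned into ratios, or Newcombe's for differences of shares. They treat peaks as independent and cover counting only. No test between genotypes was possible with 1 list each. RefSeq names matched 58 of 76 gene names, 57 of them with overlapping spans. The region and the gene lists were chosen with earlier results of these data known. Genes were named by a rule: most WT-only or KO-only peaks, largest gain, most peaks, and up to 4 members per list. NEBL, MINDY3 and AL359878.1 enter through the peaks of highest fold. AL713922.2, AKR1C5P, AKR1C8P and further list members were named after their values were seen. Alternatives changed the peaks admitted, list length, overlap, peak units, window size, gene assignment and bounds.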

Additional observations from a re-analysis of the deposited data

How the results depend on the processing

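None of the alternative values turned round the ratio of peaks, the ratio of bases or the promoter difference. For the shares met, the windows and the genes no turning round was defined. Of the 46 alternative values 19 moved beyond a limit. The limit was the counting interval of the reported value. For covered bases it was the relative width of the interval of the peak ratio. For windows and genes it was a fixed factor of the reported share, and none of those moved. The ratio of KO to WT peaks, 0.464 as reported, was 0.300 among peaks at or above the pooled median fold of 3.69, 0.590 among peaks at or below the pooled median q of 1.7e-07, 0.298 and 0.373 in lists of equal length (46898 peaks) by q and by fold, and 0.583 when peaks within 1 kb were merged. The ratio of bases, 0.440 as reported, was 0.306 at the median fold and 0.331 and 0.355 in lists of equal length by q and by fold. The share of WT peaks meeting a KO peak, 34.7% as reported, was 19.3% at the median fold, 24.5% and 29.8% in lists of equal length by q and by fold, 42.3% with merged peaks, 16.6% with at least 50% of each peak shared and 46.4% within 1 kb. The share of KO peaks meeting a WT peak, 72.9% as reported, was 63.1% at the median fold, 55.1% at the median q, 78.5% in lists of equal length by q, 35.7% under that same overlap, which makes meeting the rarer case, and 78.6% within 1 kb. The cause of these shifts was not tested. With the median-q limit, 37 of 45 genes had fewer KO bases, beside 68 of 76 as reported. Windows with fewer KO bases numbered 25 to 27 of 28, and 52 of 55 at 500 kb. Bounds at 1 Mb or 27 Mb, chosen after seeing the data, gave 0.459 and 0.461 for peaks. No paired analysis was possible because the replicate numbers of the libraries appear in no column of the lists. For the same reason no replicate could be left out. The depth of the libraries is unknown, so the absence of a KO peak is no measure of absent H3K9me3.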
